A study of Mus musculus with 4 samples.

Results

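The genes described are 10 that encode secreted cytokines and growth factors: Csf1, Csf2, Il1a, Il6, Il12a, Il15, Il18, Tnf, Tnfsf10 and Lif. They were taken by gene symbol from the array annotation, with no measured value in the rule. The list itself was chosen with earlier results of these data known. All 10 were found, with 11 probes of 41345 on the array, and they are 10 of the 22180 genes tested. RNA came from cultured B16-OVA, mouse melanoma cells made to express chicken ovalbumin. There were 2 arrays of mock transfected cells and 2 of cells transfected with AT90ES, which the labels link to double-stranded DNA of 90 bases. The time given for transfection with Lipofectamine 2000, a cationic lipid, was 6 hours, and the labels carry that text for all 4 arrays, so the content of the mock transfection is unknown here. An effect of DNA and an effect of the procedure therefore cannot be told apart. Nothing in the labels says that the 2 arrays of a group came from separate cultures, so p-values cover only a spread that may be technical.

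DNA in the cytoplasm is sensed by cGAS, which signals through STING to the kinase TBK1 and the transcription factors IRF3 and NF-kappaB. Many cytokine genes have promoters and enhancers that respond to NF-kappaB and AP-1, and several of their mRNAs are short-lived because proteins such as tristetraprolin bind their AU-rich ends. Melanoma cells are known to secrete some of these factors themselves, whereas others are made mainly by macrophages, dendritic cells and lymphocytes.

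On this array the log2 level of a probe depends on its own sequence, so changes were measured between arrays for the same gene. Levels of different genes were set against each other only to choose which uncalled genes of a list to name and against background. Background was set on each array at the 95th percentile of the log2 levels of 1105 genes of olfactory receptors, which melanoma cells are assumed not to express. It lay between 4.85 and 5.07 on the 4 arrays. As a check of the label, all 8 melanocyte markers, Dct, Tyrp1, Mlana and Pmel among them, were above background on all 4 arrays. For other cell types, 5 of 12 markers of myeloid cells were, with 1 of 9 for lymphocytes and 6 of 13 for fibroblasts and endothelium. Over all genes the share above background on all 4 arrays was 52.8%. Ptprc, the pan-leukocyte marker, was above background on 0 arrays, whereas Cd68, Csf1r, Fcgr3, Fcer1g and Lyz2 of the myeloid list were on all 4. These counts do not settle whether other cells were present. The mean log2 level of the myeloid list was 5.17 and 5.03 in mock and 4.9 and 5.02 in AT90ES samples, and its part in the results was not tested.

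The sequences before the start sites of the 4 cytokine genes with the largest log2 fold changes are shown for the binding motifs they hold. That of Tnfsf10, with a log2 fold change of -0.11, is shown too. Il1a at -0.03 and Il12a at 0.03, not shown, lay nearer to 0. Each sequence shown is the 250 bases before the annotated start in the gene's direction, from RefSeq on build GRCm38.p6. Capitals mark motif matches.

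Csf1, chr3:107760470-107760719, minus strand: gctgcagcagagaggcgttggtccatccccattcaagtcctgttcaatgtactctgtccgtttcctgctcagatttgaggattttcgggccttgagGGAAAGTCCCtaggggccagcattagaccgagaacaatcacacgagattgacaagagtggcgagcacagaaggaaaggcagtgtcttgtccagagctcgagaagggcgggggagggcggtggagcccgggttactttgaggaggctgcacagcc
Lif, chr11:4257318-4257567, plus strand: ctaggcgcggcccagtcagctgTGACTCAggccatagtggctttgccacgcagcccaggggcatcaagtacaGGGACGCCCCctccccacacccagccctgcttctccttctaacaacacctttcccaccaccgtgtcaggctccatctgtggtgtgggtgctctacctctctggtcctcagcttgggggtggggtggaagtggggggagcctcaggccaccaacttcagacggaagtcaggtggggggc
Il6, chr5:30012864-30013113, plus strand: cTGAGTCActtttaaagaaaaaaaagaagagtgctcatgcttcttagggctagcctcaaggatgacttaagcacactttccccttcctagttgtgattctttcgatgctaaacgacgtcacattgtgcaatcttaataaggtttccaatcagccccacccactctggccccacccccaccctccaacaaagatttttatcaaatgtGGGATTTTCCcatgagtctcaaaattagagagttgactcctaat
Tnf, chr17:35202008-35202257, minus strand: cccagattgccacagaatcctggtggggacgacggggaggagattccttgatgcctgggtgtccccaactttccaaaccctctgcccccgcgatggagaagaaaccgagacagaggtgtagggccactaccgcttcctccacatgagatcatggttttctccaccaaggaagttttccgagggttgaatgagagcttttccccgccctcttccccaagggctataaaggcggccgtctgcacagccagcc
Tnfsf10, chr3:27316827-27317076, plus strand: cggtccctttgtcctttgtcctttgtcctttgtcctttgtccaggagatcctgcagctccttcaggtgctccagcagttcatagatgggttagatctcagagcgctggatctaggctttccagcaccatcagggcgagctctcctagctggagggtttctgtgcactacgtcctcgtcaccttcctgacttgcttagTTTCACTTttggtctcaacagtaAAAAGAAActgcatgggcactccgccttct

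Windows were available for 9 of the 10 genes, 10 windows in all since Il12a has 2 start sites, and Il15 had no entry. Both strands were searched for an NF-kappaB consensus of GGG, a purine, any 2 bases, 2 pyrimidines and CC. They were also searched for the AP-1 core TGANTCA and for AANNGAAA, the core bound by interferon regulatory factors (IRF). The Csf1 window held an NF-kappaB match, 154 to 145 bases before the start and on the opposite strand. The Lif window held an AP-1 match at 228 to 222 bases and an NF-kappaB match at 178 to 169 bases. The Il6 window held an AP-1 match at 249 to 243 bases and an NF-kappaB match at 44 to 35 bases. The Il1a window, not shown, held an AP-1 match at 12 to 6 bases before the start. The Tnfsf10 window held IRF core matches at 53 to 46 and at 30 to 23 bases, and that of Il18, not shown, held 1 at 87 to 80 bases. The other 4 windows, that of Tnf included, held no match to these exact patterns, and matches of different motifs did not overlap. Looser versions of the motifs were not searched. Among 32851 windows of the same length over all genes, 7.25% held the NF-kappaB consensus, 6.75% the AP-1 core and 21.3% the IRF core. A match describes letters only and shows no binding.

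Csf1, which encodes the growth factor that macrophages need to survive and multiply, was the 1 gene of the 10 that passed as higher. It read 6.73 and 6.74 on the log2 scale in mock cells and 8.94 and 9.16 in AT90ES cells. Both AT90ES arrays were far above both mock arrays, and the smallest gap between the groups was 2.21, against gaps of 0.01 and 0.21 within them. The log2 fold change was 2.32 ± 0.13 (SE), a 4.98-fold rise with an adjusted p = 0.00344 in limma, the 26th largest change of the 22180 genes in either direction. In these bulk samples a change in the number of expressing cells and a change in RNA per cell cannot be told apart. Over 12 alternative settings the adjusted p lay between 2.81e-08 and 0.0396, and the fold change without any 1 of the arrays lay between 2.21 and 2.42 on the log2 scale. Of all genes, 0.415% passed as higher, and 0% as lower.

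**Figure D1:**
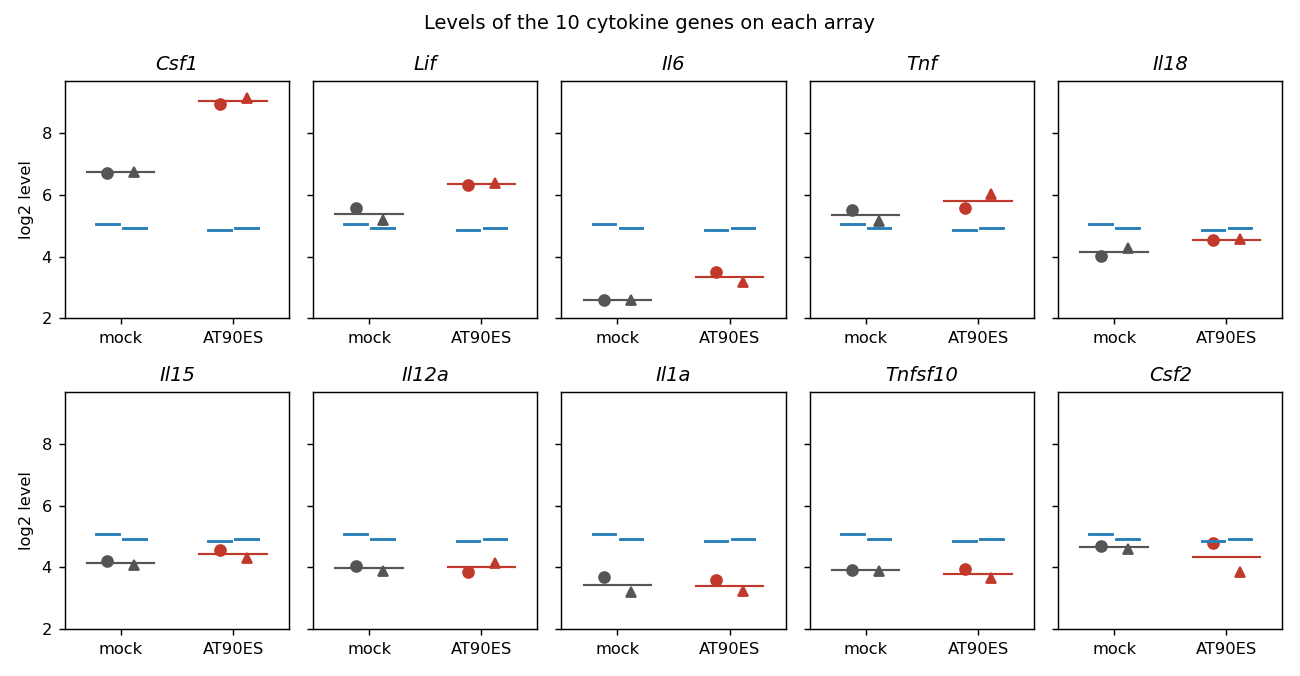
Log2 level of each of the 10 cytokine genes on the 2 mock (grey) and 2 AT90ES (red) arrays. Circles are replicate 1, triangles replicate 2, horizontal lines group means and short blue bars each array's background. Csf1 lies between 6.73 and 9.16 and above background throughout, while 7 of the genes lie under the blue bars on every array.

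Csf2, which encodes GM-CSF, a growth factor of granulocytes and macrophages, had log2 levels of 4.68 and 4.61 in mock and 4.79 and 3.86 in AT90ES cells. The groups overlapped, because 1 AT90ES array was above both mock arrays and the other was below them. The log2 fold change was -0.32, with a 95% interval of -1.06 to 0.42 and an adjusted p = 0.805 in limma. Its other, dimmer probe read 2.88 and 2.92 in mock and 2.72 and 3.29 in AT90ES cells. Both probes were below background on all arrays, so a change at such levels may not be detectable. Csf1r, the receptor of CSF-1, had log2 levels of 5.13 and 5.71 in mock and 5.27 and 5.28 in AT90ES cells, with overlapping groups (adjusted p = 0.888 in limma).

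Among 7 measured relatives, a list of other colony-stimulating and blood cell growth factors, 0 passed in either direction in limma, also 0 at an unadjusted p under 0.05. Their log2 fold changes had a median of 0.04, against -0.02 over all genes. Csf3, which encodes the growth factor of neutrophils, stood at 0.19 (adjusted p = 0.795) and Epo, the hormone of red cell formation, at -0.22 (adjusted p = 0.637).

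The IL-6 family signals through the shared receptor chain gp130 and acts on inflammation, stem cells and acute phase genes. Lif, which encodes leukaemia inhibitory factor, had log2 levels of 5.59 and 5.19 in mock and 6.32 and 6.40 in AT90ES cells. Both AT90ES arrays were above both mock arrays by at least 0.73, and all 4 arrays were above background. The log2 fold change of 0.97 ± 0.16 (SE), or 1.95-fold, had a 95% interval of 0.56 to 1.37. It did not pass over all genes (adjusted p = 0.164 in limma, unadjusted p = 0.0013). When the spread shared across genes was allowed to depend on the level, the adjusted p was 0.00772, a setting under which 1.94% of all genes passed as higher, and over all alternatives it lay between 0.00772 and 0.605.

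Il6, which encodes an inflammatory cytokine of fever and the acute phase, read 2.60 and 2.60 in mock and 3.51 and 3.17 in AT90ES cells. The AT90ES arrays were both higher, yet all 4 levels were far under the background of their arrays. The log2 fold change was 0.74 ± 0.15 (SE), with an adjusted p = 0.252 in limma. A difference between levels below background has no reliable size. Of 5 other IL-6 family genes measured, 0 passed in limma and 0 had an unadjusted p under 0.05, with a median log2 fold change of -0.07. Ctf1, which encodes cardiotrophin, and Il27 both stood at -0.26. Il6st, which encodes gp130, had log2 levels of 9.37 and 9.35 in mock and 9.61 and 9.73 in AT90ES cells, a log2 fold change of 0.31 (adjusted p = 0.524).

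**Figure D2:**
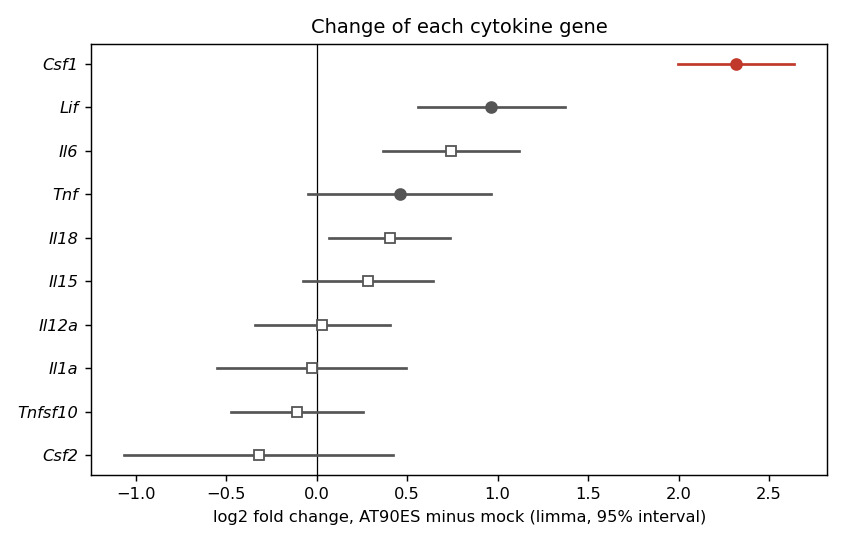
Log2 fold change of each cytokine gene, AT90ES minus mock, with the 95% interval from limma. Filled circles are genes above background on all 4 arrays, open squares genes below it on all 4, and red marks the gene past the threshold. The interval of Csf1 reaches 2.64 and lies above the intervals of the other 9 genes, and those of Lif, Il6 and Il18 also lie above 0 before adjustment.

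The IL-1 family genes Il1a and Il18 encode alarm cytokines, of which IL-18 needs cleavage by caspase-1 before release. Il18 had log2 levels of 4.02 and 4.27 in mock and 4.53 and 4.56 in AT90ES cells. The groups did not overlap, but all 4 levels were below background, and the difference of 0.40 did not pass (adjusted p = 0.47 in limma). Il1a read 3.68 and 3.19 in mock and 3.58 and 3.23 in AT90ES cells, with overlapping groups and a log2 fold change of -0.03 (95% interval -0.55 to 0.49). Its sign turned to 0.0015 with arrays centred on their median. Of 8 other family members and soluble inhibitors, 0 passed in limma, 0 had an unadjusted p under 0.05 and the median log2 fold change was -0.10. Il33, an alarmin released from injured cells, stood at -0.02 and Il18bp, which encodes the decoy that neutralises IL-18, at -0.01.

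Tnf and Tnfsf10 encode ligands of the TNF superfamily, of which TNF drives inflammation and TRAIL, the product of Tnfsf10, kills cells through death receptors. Tnf had log2 levels of 5.51 and 5.16 in mock and 5.57 and 6.02 in AT90ES cells. The groups did not overlap, though the smallest gap between them was 0.06 and the gap within the AT90ES pair was 0.45. The log2 fold change of 0.46 had a 95% interval of -0.05 to 0.96 and an adjusted p = 0.579 in limma. Tnfsf10 read 3.92 and 3.89 in mock and 3.95 and 3.64 in AT90ES cells, below background on each array. Its groups overlapped, and the log2 fold change was -0.11 (95% interval -0.47 to 0.25).

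Among the measured receptors of TRAIL, 1 passed as higher. Tnfrsf10b, which encodes the death receptor DR5, had log2 levels of 6.23 and 6.86 in mock and 8.71 and 8.52 in AT90ES cells. The change was 2.07 ± 0.22 (SE) on the log2 scale, or 4.19-fold, with an adjusted p = 0.0369 in limma. That call was lost without AT90ES replicate 1 (adjusted p = 0.231) and without AT90ES replicate 2 (0.17), and with every probe tested separately (0.203). The other listed TRAIL receptors, named after their values were seen, did not pass in limma. Tnfrsf22 stood at -0.24, Tnfrsf23, below background on all arrays, at 0.41 and Tnfrsf11b at -0.33. Tnfrsf1a, which encodes the main receptor of TNF, stood at 0.26 (adjusted p = 0.588). Of 13 other measured TNF superfamily ligands, 0 passed in limma and 1 had an unadjusted p under 0.05. It was Tnfsf4, named after its value was seen, at -0.61 (adjusted p = 0.495 in limma). Tnfsf4 was below background on all 4 arrays, so the size of its difference is not reliable. The median of the 13 ligands was -0.0048, and Tnfsf9 stood at -0.25 and Ltb at 0.29.

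Il12a and Il15 encode cytokines that activate natural killer cells and T cells. Il12a, the smaller chain of IL-12, had log2 levels of 4.06 and 3.87 in mock and 3.86 and 4.14 in AT90ES cells, with overlapping groups. Its log2 fold change was 0.03, with a 95% interval of -0.34 to 0.40, and -0.04 after centring arrays on the reference genes. Il15 read 4.22 and 4.09 in mock and 4.57 and 4.29 in AT90ES cells. The Il15 groups were separate by 0.08, and the difference of 0.28 did not pass (adjusted p = 0.633 in limma). Both genes were below background on all arrays. The partner chain Il12b stood at -0.10 and Ebi3 at 0.04, and of the 3 partner chains 0 passed in limma, with 0 at an unadjusted p under 0.05.

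Across the 10 genes, 1 passed as higher and 0 as lower in limma, and 4 were higher and 0 lower at an unadjusted p under 0.05. Over all genes 0.415% passed as higher and 0% as lower in limma. At an unadjusted p under 0.05 the shares over all genes were 4.5% higher and 4.59% lower. Both AT90ES arrays lay above both mock arrays for 6 of the 10 genes, against 17.7% of all genes, and below both for 0, against 22.1%. The median log2 fold change was 0.34 over the 10 genes and -0.02 over all genes. That median lies between Il15 at 0.28 and Il18 at 0.40. Il6, Il15 and Il18 among the 6, and Il6 and Il18 among the 4, were below background on every array, where differences have no reliable size. The 10 genes were also chosen with earlier results of these data known, so these comparisons with all genes are descriptive only. Csf1, Tnf and Lif were above background on all 4 arrays and the other 7 on none, against 52.8% and 38.2% of all genes. With background set at the 99th percentile, Csf1 alone stayed above it on all 4 arrays, Lif on 2 and Tnf on 1.

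**Figure D3:**
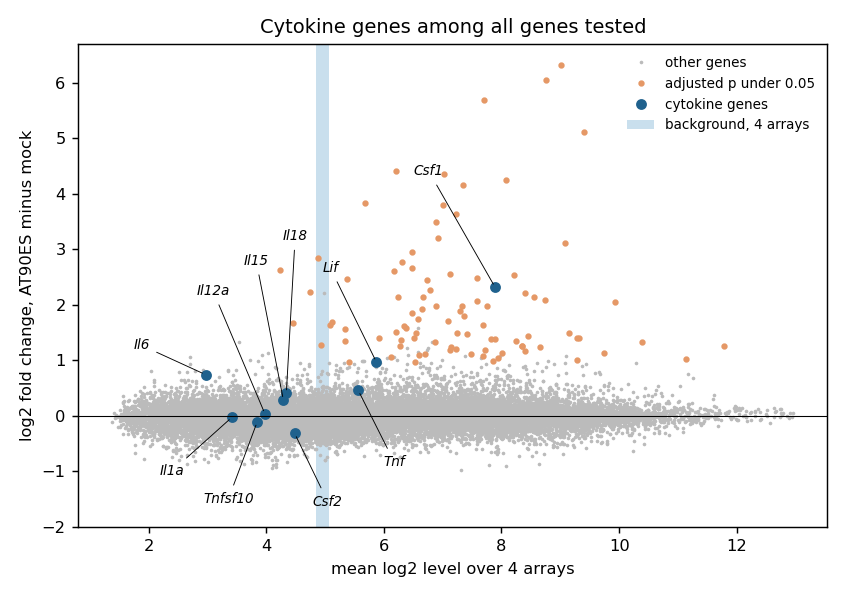
Log2 fold change (AT90ES minus mock) against the mean log2 level of each of the 22180 genes, with the 10 cytokine genes in blue and the 92 genes past the threshold in orange. The pale band marks the background of the 4 arrays, 4.85 to 5.07. Csf1 lies among the orange points to the right of the band, and 7 cytokine genes lie to its left.

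Some of these cytokines can be processed or shed, and 13 genes of processing and release were measured. In limma 1 of them rose, 0 fell and 12 did not pass, with a median log2 fold change of 0.06. At an unadjusted p under 0.05, 2 were higher and 2 lower, against 4.5% and 4.59% of all genes. The 2 lower, named after their values were seen, were Pycard at -0.37 and Gsdmd at -0.31. The risen gene was Rhbdf2, which encodes iRhom2, the partner that brings the TNF-shedding protease ADAM17 to the cell surface. Its log2 levels were 6.56 and 6.98 in mock and 8.70 and 8.80 in AT90ES cells. The change was 1.99 ± 0.17 (SE) on the log2 scale, 3.96-fold, with an adjusted p = 0.0173. The call was lost without AT90ES replicate 1 (0.118), without AT90ES replicate 2 (0.122) and with every probe tested separately (0.136). Adam17 itself, named after its value was seen, stood at 0.30 (adjusted p = 0.556). Adam10, another shedding protease, stood at 0.06 and Capns1, the small calpain subunit, at 0.01. Casp1, chosen after its value was seen, was below background on all arrays.

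Of 22 measured receptor chains of the 10 cytokines, Tnfrsf10b was the 1 that rose, 0 fell and 21 did not pass, with a median of -0.03. At an unadjusted p under 0.05 in limma, 3 of these chains were higher and 2 lower. Among 32 regulators of cytokine transcription and mRNA turnover, 5 rose, 0 fell and 27 did not pass in limma, and 19 were higher and 0 lower at an unadjusted p under 0.05. Over all genes 0.415% passed as higher and 0% as lower, and 4.5% were higher and 4.59% lower at an unadjusted p under 0.05. The median of the regulators was 0.39, against -0.02 over all genes. This list too was chosen with earlier results of these data known. The 5 regulators that rose were Nfkbie, Atf3, Nfkb2, Nfkbia and Zfp36. Nfkbie, which encodes I-kappaB epsilon, a cytoplasmic inhibitor of NF-kappaB, had log2 levels of 6.31 and 6.37 in mock and 8.34 and 8.27 in AT90ES cells. It rose by 1.97 ± 0.12 (SE; adjusted p = 0.00379) and kept its call in each fit that left out 1 array.

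Nfkbia, another such inhibitor, rose by 1.35 and Nfkb2, which encodes the precursor of the p52 subunit, by 1.37 on the log2 scale. Atf3, a stress-induced transcription factor of the ATF family, rose by 1.48. Zfp36 encodes tristetraprolin, which binds AU-rich cytokine mRNAs and speeds their decay, and it read 6.16 and 6.13 in mock and 7.27 and 7.24 in AT90ES cells. It rose by 1.11 ± 0.11 (SE; adjusted p = 0.0299 in limma, 0.0503 with the replicate number as a block). The calls of Nfkb2, Nfkbia, Atf3 and Zfp36 were lost in each of the 4 fits that left out 1 array, mock or AT90ES, with adjusted p up to 0.154, 0.172, 0.118 and 0.242 over the alternatives. The regulators called higher then numbered 1.

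**Figure D4:**
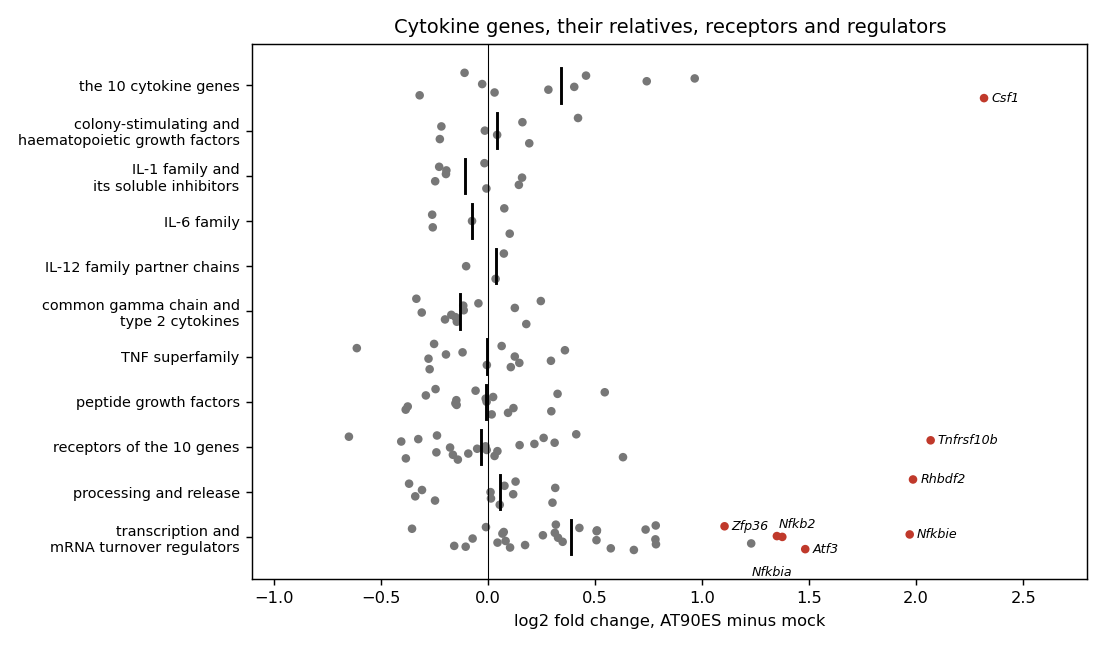
Log2 fold change (AT90ES minus mock) of the 10 cytokine genes and of the genes of each related list, 1 point a gene, with the list median as a black bar and genes past the threshold in red and named. The medians are 0.34 for the cytokine genes, 7 of them below background on every array, and 0.39 for the regulators. Red points are found in 4 of the lists.

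The remaining lists held no called gene. Of 17 peptide growth factors, 0 passed in limma, 2 were higher and 1 lower at an unadjusted p under 0.05, and the median was -0.01. Mif, which encodes a cytokine that holds macrophages in place, had log2 levels of 11.04 and 11.22 in mock and 11.22 and 11.03 in AT90ES cells, and Vegfb stood at -0.06. Among 12 common gamma chain and other cytokines, 0 passed in limma and 1 was lower at an unadjusted p under 0.05. Their median was -0.13, Il16 stood at -0.20 and Il24 at -0.11, and 11 of the 12 were below background on all arrays.

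Likeness to Csf1 was measured as the Euclidean distance between log2 levels over the 4 arrays, after each gene's own mean was subtracted. The nearest genes were Tapbp at 0.24, Cmpk2 at 0.25 and Btg2 at 0.25. The log2 fold changes of Cmpk2, Tapbp and Btg2 were 2.49, 2.21 and 2.56, all past the threshold in limma. With 4 arrays such distances mainly order genes by the size of their change.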

How the data were processed

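RNA was measured on 4 Affymetrix arrays, with groups and replicate numbers from the sample titles. The deposited values were log2 levels, made by the authors with RMA per the submitters' processing notes, which removes any change shared by all genes. The software, its version and the genome build are not given in the sources used here. Median log2 levels were 4.83 to 4.91 per array. For arrays, their number limits the precision.

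Of 41345 probes, 23521 had 1 gene symbol in the platform annotation, 1814 several and 16010 none. Of those with 1 symbol, 23328 matched a RefSeq gene by ID. The probe with the highest mean stood for each of 22180 genes. The groups were compared with limma 3.58.1 in R 4.3.3 (lmFit, eBayes, no covariate, no filter), two-sided, with Benjamini-Hochberg adjustment over all genes and a threshold of 0.05. All p-values are limma's. An exact permutation test of 2 against 2 arrays cannot give less than 0.333. The fit was tested on simulated data. Alternatives changed the prior spread, the scaling, the probes, the filter, the block and the arrays used.

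The members and lists were chosen with earlier results of these data known. Named genes were the 10 members, listed genes past the threshold, otherwise the 2 with the highest level in each cytokine, receptor, processing and regulator list, the receptor of each risen member and its nearest genes after centring (nearness by uncentred levels, also in the rule, is not reported, since levels depend on the probe). Others are said to be chosen after their values were seen. Same-numbered arrays deviated with r = -0.22 over genes, so the numbers were not taken as pairs.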

Additional observations from a re-analysis of the deposited data

How the results depend on the processing

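Csf1 kept its direction and its call under all 12 alternatives, and no called value changed sign. Of the 10 genes, 6 kept their sign without each array, and Csf2, Il1a, Il12a and Tnfsf10, none of them past the threshold, did not. With 1 array left out, the spread of the remaining array of its group is taken from the other group.

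With an intensity trend, limma called 431 genes higher and 162 lower (92 and 0 in the main test), and 2 of the 10 cytokine genes, the added one being Lif at 0.97. It then called 1 peptide growth factor, 2 receptors, 2 processing genes and 17 regulators higher and 1 melanocyte marker lower. With dim genes left out, 165 were higher and 6 lower, 9 regulators among the higher, and 7 cytokine genes were not tested. With arrays centred on their median 1 gene was lower. With every probe tested separately 30 probes were higher, with 0 receptors, 0 processing genes and 1 regulator. Without 1 array in turn, 32 to 47 genes were higher, 1 of the 10 cytokine genes in each fit, 0 to 1 receptors, 0 to 1 processing genes and 1 regulator. The causes of these shifts were not tested.

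With the replicate block, 85 genes were higher and Csf1 stood at 2.32 (adjusted p = 0.00149), and the block changed the call of Zfp36 alone among the named genes. The crossed pairing, chosen after seeing the data, called 59 genes higher, 1 of the 10 cytokine genes and 2 regulators. With the 99th percentile of olfactory receptor genes, or the highest lymphocyte marker, as background, 1 of the 10 genes lay above it on all arrays, against 3. For the 7 genes below background, signal limits what could be seen.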

Other observations

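Csf2rb and Csf2ra, receptor chains of GM-CSF named after their values were seen, had opposite signs. Csf2rb2, also listed for GM-CSF, stood at 0.03 and was below background on all 4 arrays. Csf2rb, the signalling chain, had a log2 fold change of 0.63 (unadjusted p = 0.0053, adjusted p = 0.32 in limma) and Csf2ra, the binding chain, -0.38 (unadjusted p = 0.019, adjusted p = 0.45), both above background on all 4 arrays, and neither passed the threshold. Tnfrsf1b, which encodes the other TNF receptor and was also named after its value was seen, stood at -0.65 (adjusted p = 0.46 in limma). It was above background on 3 of the 4 arrays and below it in AT90ES replicate 2. Vegfa, the main growth factor of blood vessels, was also named after its value was seen. It had a log2 fold change of 0.55 (unadjusted p = 0.0041, adjusted p = 0.29 in limma). The other peptide growth factors with an unadjusted p under 0.05, named for that, were Tgfa at 0.33 and Ereg at -0.38. Neither passed the threshold.

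The unnamed probe that the annotation assigns jointly to Tnfsf12 and Tnfsf13, both TNF superfamily ligands, and to their fusion transcript had a log2 fold change of 0.22 and an adjusted p = 0.882 with every probe tested separately in limma. It entered no comparison of genes.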
